A study of Homo sapiens with 60 samples.

Results

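The 35 genes that encode aminoacyl-tRNA synthetases, the enzymes that load each tRNA with its amino acid, were followed in HT29 cells after 24 h with extracts of medicinal plants made in 70% ethanol. They were taken by name from 60675 gene IDs in the expression table, under current or older symbols (CARS for CARS1, TARSL2 for TARS3). Of the 35 genes, 17 encode cytosolic enzymes and 15 encode mitochondrial enzymes, which carry the suffix 2. The other 3 were kept apart: GARS1 and KARS1, whose products serve both compartments, and TARS3, a paralog of TARS1.

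HT29 is an established human colorectal adenocarcinoma cell line. The cells were given 8 extracts: Yijung-tang and Banhasasim-tang, which are formulas of several herbs, and 6 extracts of a single herb. For most of them the high dose was 500 µg/mL, the medium dose 100 µg/mL and the low dose 20 µg/mL. Bupleuri Radix was given at 310, 62 and 12.4 µg/mL, and Coptidis Rhizoma at 320, 64 and 12.8 µg/mL. At each dose 4 extracts had 3 libraries (Aconiti Lateralis Radix Preparata, Bupleuri Radix, Cimicifugae Rhizoma, Citri Unshius Pericarpium). A dose of Zizyphi Fructus, Yijung-tang or Coptidis Rhizoma had 2, and a dose of Banhasasim-tang 1, while cells with vehicle (DMSO) gave 3. The sample labels give 0.1% DMSO for the vehicle, and the series design gives 2%. The labels do not say whether replicates were separate cultures, so p-values measure the spread between these libraries, which may be technical.

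In a charging reaction a synthetase activates its amino acid with ATP and transfers it to the matching tRNA. Most cytosolic synthetases and their mitochondrial counterparts are encoded by separate nuclear genes, and the mitochondrial proteins are imported after synthesis. Several cytosolic enzymes, among them EPRS1, IARS1, LARS1, MARS1, QARS1, RARS1 and KARS1, are held together in the multisynthetase complex by scaffold proteins. Genes of many cytosolic synthetases are known targets of the transcription factor ATF4, whose translation increases when eIF2 is phosphorylated under amino acid shortage or other stress.

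The libraries held 18083414 to 36715081 counts, at which 3 counts, taken as the floor of detection, equalled 0.082 to 0.166 CPM, the count scaled to library size. All 35 genes passed the filter of 0.5 CPM in 3 libraries and stood above that floor in every library. High and low dose of an extract share the leading number of the sample name, here called a library set, while vehicle has a set of its own, so a difference from vehicle and a difference between sets cannot be told apart. High against low dose is therefore the main comparison. Zizyphi Fructus medium replicate 3 stands apart, with a scaling factor of 0.5665 against 0.93 to 1.04 in the others, and the spread in the shared model rests partly on it. Of the epithelial markers EPCAM ran from 472 to 608 CPM and KRT8 from 3309 to 7725 CPM. CDX1, a colon transcription factor, reached at most 1.70 CPM, and GPA33, CDX2 and CEACAM5 at most 5.83, 9.87 and 19.2 CPM. Of 10 markers of fibroblasts, leukocytes and endothelium, the sum was 7.65 and 8.76 CPM in Coptidis Rhizoma high dose and 9.77 and 10.5 CPM in its low dose. PTPRC, CD3E, COL3A1 and DCN stayed under 0.1 CPM in all 60 libraries. CD68 (3.51 to 38.3 CPM), COL1A1 (0.825 to 3.69 CPM) and PECAM1 (0.15 to 2.5 CPM) had counts in every library.

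In vehicle cells the cytosolic genes stood above the mitochondrial ones on a scale of CPM per kilobase of principal transcript. The median level was 53.2 over the 17 cytosolic genes (24.3 to 69.8) and 12.5 over the 15 mitochondrial genes (4.19 to 38.1). KARS1 was highest, at 107, 106 and 115 CPM per kb, followed by GARS1 at 69.4, 69.5 and 71.7 and IARS1 at 64.4, 70.0 and 75.0, and the last 2 overlapped. The ranges of the classes overlapped through IARS2 (38.1 ± 1.53; SD, n = 3) and CARS2 (24.4 ± 0.375) on the mitochondrial side and FARSB (24.3 ± 0.655), the beta subunit of the phenylalanine enzyme, on the cytosolic side. TARS3 was the lowest of the 35, at 2.14, 2.48 and 2.66 CPM per kb.

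**Figure D1:**
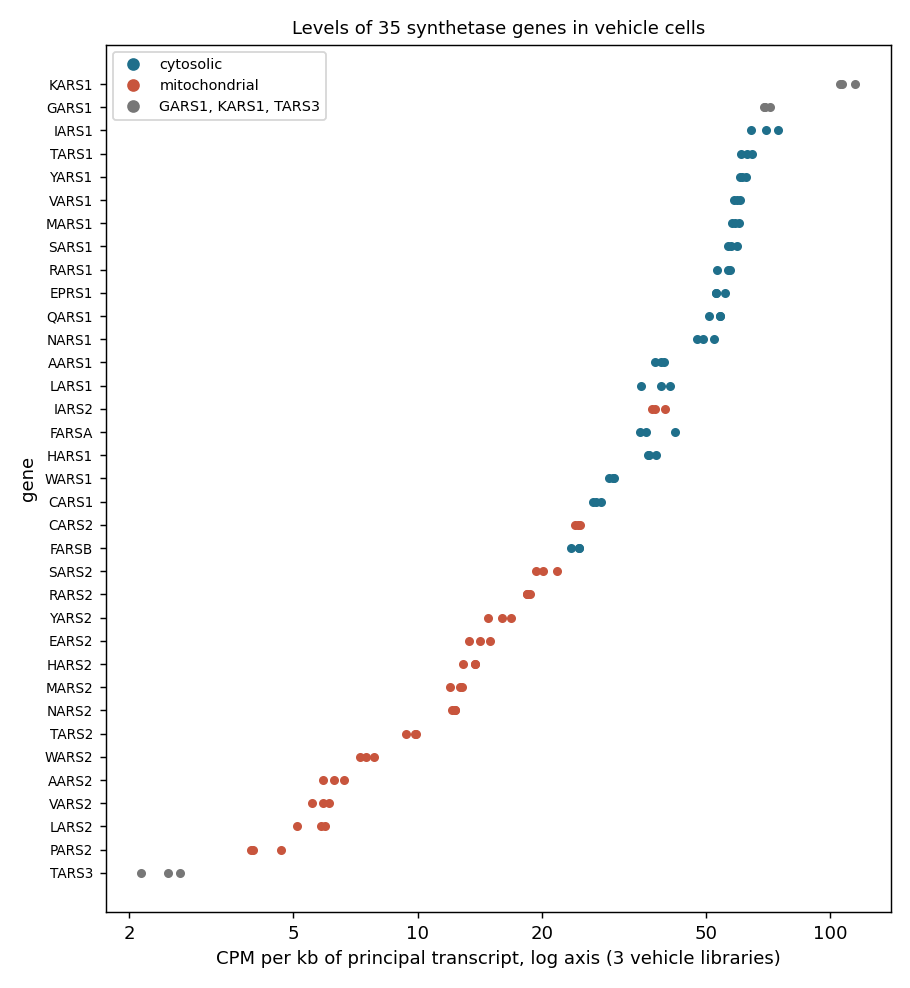
Levels of the 35 genes in the 3 vehicle libraries, as CPM per kb of principal transcript on a log axis, with each point 1 library and colours for the classes. Cytosolic genes fill most of the upper part and mitochondrial genes the lower part, with KARS1 at the top and TARS3 at the bottom.

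At the high dose of Coptidis Rhizoma, the rhizome of Coptis, most cytosolic synthetase genes were higher than at low dose, and most mitochondrial ones that passed the test were lower. Of the 17 cytosolic genes 11 were higher and 5 were lower, and of the 15 mitochondrial genes 1 was higher and 8 were lower, at an adjusted p under 0.05. The extract changed much of the transcriptome: 27.8% of all 16022 genes tested were called higher and 28.4% lower, and the counts of members are to be read against those shares. The median log2 change was 0.93 over the cytosolic genes, -0.36 over the mitochondrial genes and -0.022 over all genes, and the cytosolic median exceeded the mitochondrial one by 1.28. Fewer cells and less RNA per cell cannot be told apart in such bulk samples.

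The largest rise was that of WARS1 (chr14:100333788-100376805, GRCh38, minus strand), the cytosolic tryptophan enzyme, which is also known as an interferon-induced gene. WARS1 stood at 610 and 608 CPM in the high-dose libraries, against 104 and 106 CPM at low dose, a 5.82-fold difference (log2 change 2.54 ± 0.084 SE, adjusted p = 2e-26). SARS1 (chr1:109213918-109238169), the serine enzyme, had 443 and 453 CPM at high dose and 122 and 122 CPM at low dose, a log2 change of 1.88 ± 0.058 (adjusted p = 3e-27). AARS1 (chr16:70252295-70289543), the alanine enzyme, had 520 and 545 CPM at high dose, against 162 and 169 CPM at low dose (1.69 ± 0.049, adjusted p = 2.9e-28). In these 3 genes the low-dose libraries lay far under the high-dose ones. GARS1 (chr7:30594681-30634033), whose glycine enzyme works in cytosol and mitochondria, rose with them, with 678 and 693 CPM at high dose and 222 and 229 CPM at low dose (1.60 ± 0.12, adjusted p = 5.1e-15).

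The other cytosolic genes that rose did so by 0.50 to 1.24 on the log2 scale. IARS1, the isoleucine enzyme, had 940 and 981 CPM at high dose and 399 and 416 CPM at low dose, and was the most abundant member by CPM in both groups. CARS1, the cysteine enzyme, had 184 and 187 CPM at high dose and 86.0 and 86.0 CPM at low dose, a log2 change of 1.11 ± 0.057. YARS1, the tyrosine enzyme, had 451 and 466 CPM at high dose and 217 and 217 CPM at low dose (1.08 ± 0.077). MARS1, the methionine enzyme, had 365 and 377 CPM at high dose and 188 and 189 CPM at low dose (0.98 ± 0.10). MARS1 overlaps DDIT3 on the opposite strand over 355 bp of exon, and the sources do not say which strand was counted. Over all 60 libraries DDIT3 had a mean of 231 counts and MARS1 4409. DDIT3 rose strongly at this high dose, as given below, so its counts there lie above that mean. Its part in the change of MARS1 was not tested. NARS1, the asparagine enzyme, had 363 and 370 CPM at high dose and 189 and 185 CPM at low dose. EPRS1, a fused enzyme for glutamate and proline, had 575 and 580 CPM at high dose and 293 and 314 CPM at low dose. TARS1, the threonine enzyme, had 581 and 602 CPM at high dose and 314 and 317 CPM at low dose, and LARS1, the leucine enzyme that also senses leucine for mTORC1, 314 and 317 CPM at high dose against 215 and 230 CPM at low dose. For each of these genes high and low dose did not overlap, and the smallest change was that of LARS1 (0.50 ± 0.099, adjusted p = 3.6e-05). With so few libraries a dose, unchanged genes can also separate. The share of all genes that separate was not counted, here or in the comparisons below.

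The cytosolic genes that fell were led by VARS1 (chr6:31777518-31795953), the valine enzyme. VARS1 had 90.7 and 95.1 CPM at high dose, against 225 and 233 CPM at low dose, a log2 change of -1.30 ± 0.10 (adjusted p = 2.5e-14). The subunits of the phenylalanine enzyme fell together. FARSA had 41.2 and 41.4 CPM at high dose and 55.8 and 57.9 CPM at low dose, and FARSB 63.7 and 65.3 CPM at high dose and 80.8 and 81.5 CPM at low dose, log2 changes of -0.46 ± 0.081 and -0.33 ± 0.044. QARS1, for glutamine, and RARS1, for arginine, fell by 0.20 and 0.13. HARS1, for histidine, changed by -0.03 ± 0.058 and did not pass (adjusted p = 0.65). Among the 7 enzymes of the multisynthetase complex, EPRS1, IARS1, LARS1 and MARS1 rose, QARS1 and RARS1 fell and KARS1 did not pass the threshold, so the genes of 1 complex differed in direction. Its scaffold genes moved less: AIMP2 rose (0.41 ± 0.081), whereas AIMP1 and EEF1E1 did not pass.

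Of the mitochondrial genes SARS2, for serine, fell most, with 19.5 and 21.0 CPM at high dose and 40.7 and 38.0 CPM at low dose (log2 change -0.96 ± 0.086, adjusted p = 1.1e-12). MARS2, for methionine, had 21.4 and 23.1 CPM at high dose and 37.1 and 38.2 CPM at low dose (-0.76 ± 0.17). AARS2, for alanine, had 12.8 and 14.0 CPM at high dose and 21.2 and 22.7 CPM at low dose (-0.72 ± 0.13). WARS2, IARS2, LARS2, EARS2 and CARS2 fell by 0.57, 0.52, 0.51, 0.47 and 0.36. WARS2 had 16.3 and 16.0 CPM at high dose and 24.2 and 23.8 CPM at low dose, IARS2 98.9 and 102 CPM against 146 and 142 CPM, LARS2 20.5 and 17.9 CPM against 27.3 and 27.5 CPM, EARS2 39.5 and 38.1 CPM against 52.1 and 55.2 CPM and CARS2 34.5 and 39.6 CPM against 47.0 and 47.7 CPM. High and low dose were separate in all 8 genes, though with so few libraries unchanged genes can also separate. PARS2, for proline, was the mitochondrial gene that rose, with 14.3 and 16.0 CPM at high dose and 10.7 and 12.1 CPM at low dose (0.41 ± 0.11, adjusted p = 0.0011). NARS2 (27.4 and 29 CPM at high dose, 27.8 and 30.1 CPM at low dose), VARS2 (23.9 and 25.1 CPM, against 22.1 and 23.3 CPM), HARS2, RARS2, TARS2 and YARS2 did not pass. VARS2 shares 1858 bp of exon with GTF2H4 on the same strand, and HARS2 152 bp with ZMAT2. On the other strand HARS2 shares 437 bp with HARS1, EARS2 370 bp with UBFD1 and SARS2 349 bp with MRPS12. CARS2 shares 326 bp with ING1 there and WARS2 180 bp with AL359915.2. Genes outside the mitochondrial class have such overlaps too: YARS1 396 bp with S100PBP, WARS1 287 bp with WDR25, HARS1 221 bp with WDR55 and GARS1 99 bp with GARS-DT. Since the sources do not say which strand was counted, the counts of these genes are uncertain, those called lower or higher included. Of 6 partners of mitochondrial charging and elongation, GATB, TSFM and TUFM fell and none rose.

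**Figure D2:**
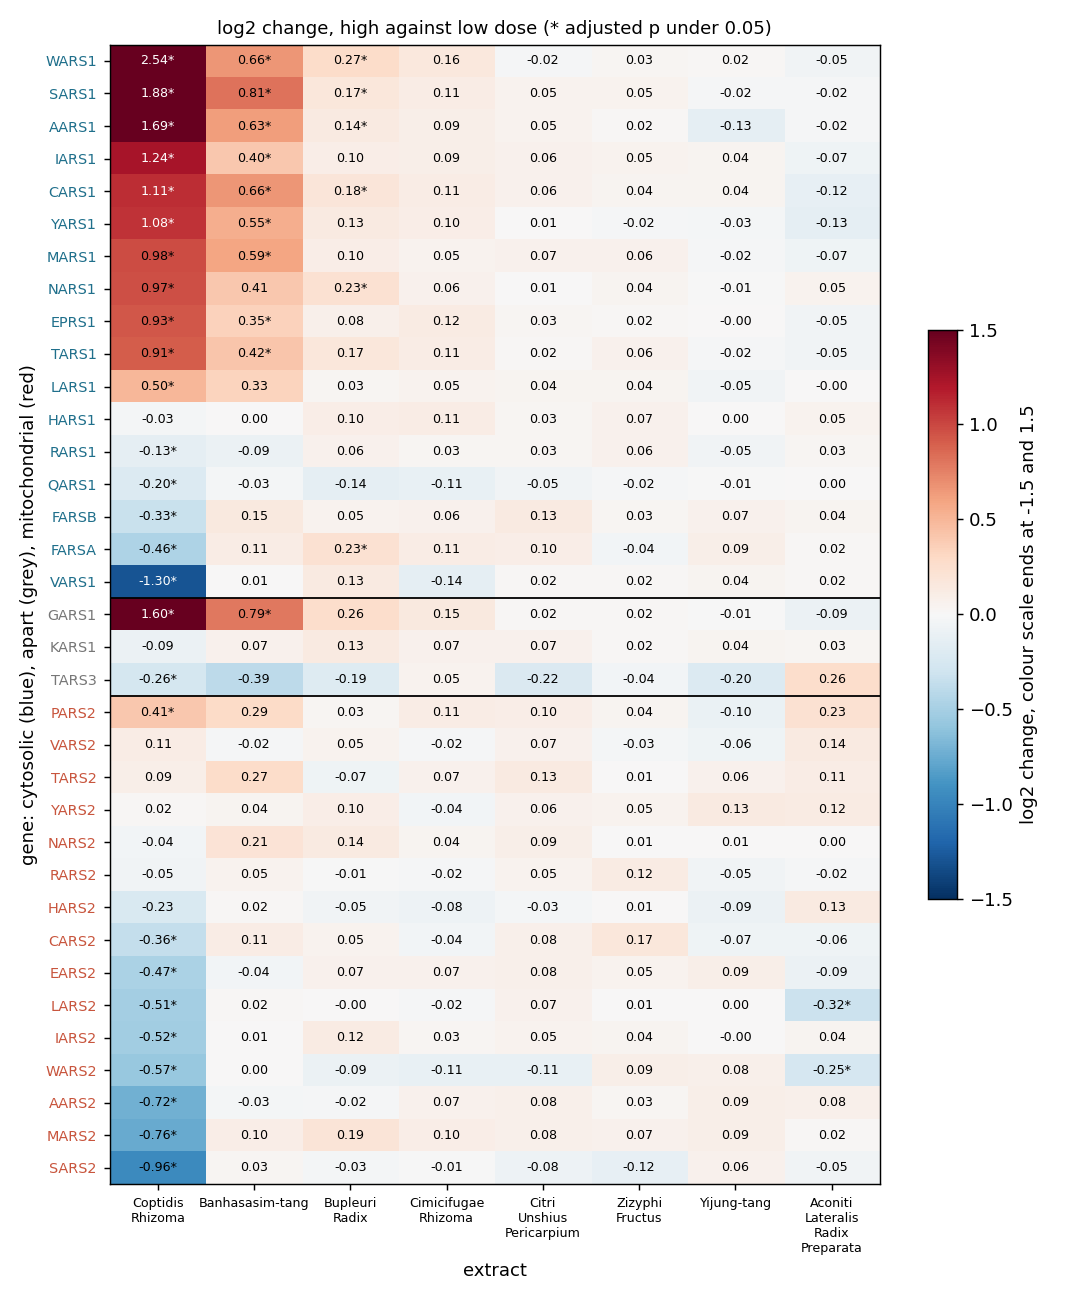
Log2 change from the model, high against low dose, of the 35 genes (rows, by class and by their change with Coptidis Rhizoma) in 8 extracts (columns), with stars at an adjusted p under 0.05. The Coptidis Rhizoma column runs from 2.54 for WARS1 to -1.30 for VARS1, and only in the columns of Coptidis Rhizoma, Banhasasim-tang, Bupleuri Radix and Aconiti Lateralis Radix Preparata does any gene carry a star.

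The threonine genes and KARS1 give a comparison within the family. TARS1 rose with Coptidis Rhizoma as given above. TARS2, its mitochondrial counterpart, had 28.6 and 27.4 CPM at high dose and 26.7 and 26.1 CPM at low dose, a log2 change of 0.09 ± 0.067 (adjusted p = 0.28). TARS3 (chr15:101653598-101724604) had 7.28 and 6.88 CPM at high dose and 9.25 and 7.70 CPM at low dose. Its change of -0.26 ± 0.11 passed narrowly (adjusted p = 0.04) and, without low replicate 2, was -0.11 (adjusted p = 0.50). As a paralog of TARS1 with far fewer counts it may also share reads with it. KARS1, the lysine enzyme of both compartments, had 209 and 213 CPM at high dose and 220 and 228 CPM at low dose (-0.09 ± 0.062, adjusted p = 0.24), unlike GARS1, the other gene that serves both.

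As a ratio of CPM within a library, which needs no scaling between libraries, the cytosolic gene gained on its mitochondrial counterpart in most of the 15 pairs. WARS1 to WARS2 had a mean ratio of 37.7 at high dose of Coptidis Rhizoma and 4.36 at low dose, AARS1 to AARS2 39.9 and 7.54, SARS1 to SARS2 22.1 and 3.11, and IARS1 to IARS2 9.55 and 2.83. The ratio of HARS1 to HARS2 was 2.89 at high dose and 2.52 at low dose, and that of RARS1 to RARS2 3.30 and 3.48. VARS1 to VARS2 went the other way, at 3.79 at high dose and 10.1 at low dose.

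**Figure D3:**
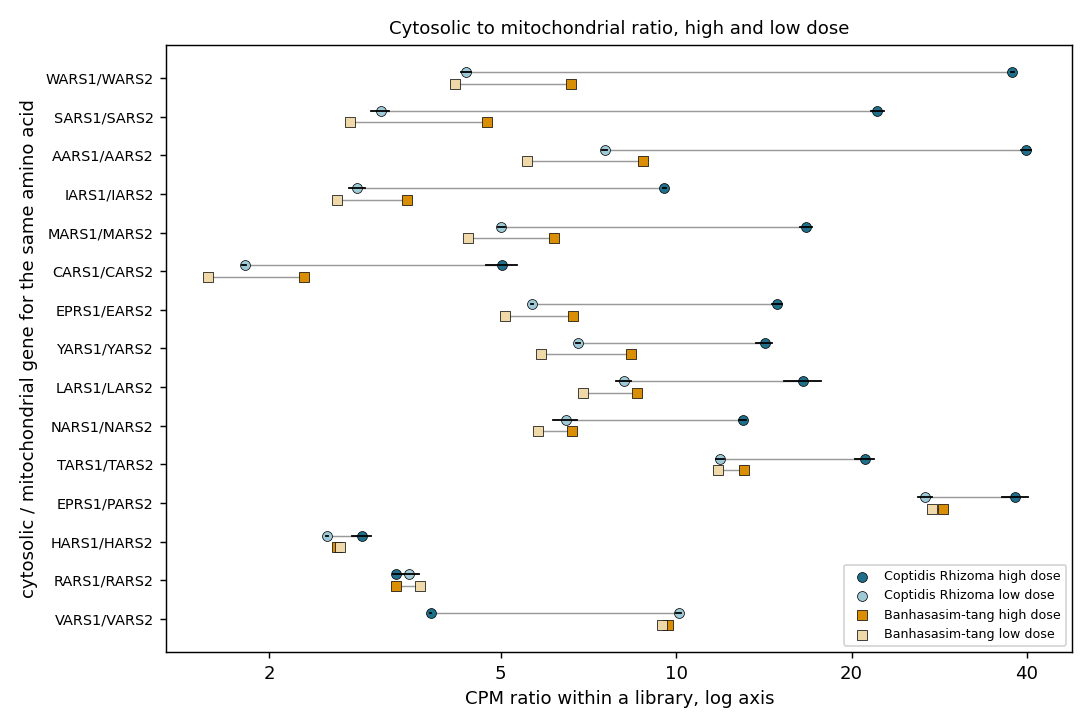
Ratio of the CPM of each cytosolic gene to that of the mitochondrial gene for the same amino acid, on a log axis, as the mean over libraries at high and low dose of Coptidis Rhizoma (black bars from the lowest to the highest library) and in 1 library each for Banhasasim-tang. The widest gaps with Coptidis Rhizoma are those of WARS1/WARS2 (37.7 at high dose, 4.36 at low dose) and SARS1/SARS2 (22.1 and 3.11), and VARS1/VARS2 is lower at high dose.

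At the medium dose of Coptidis Rhizoma fewer members passed. Against low dose 8 members were higher and 0 lower, in a comparison where 0.974% of all genes were called higher, and 0 of them were mitochondrial. SARS1 had 184 and 187 CPM at medium dose and 122 and 122 CPM at low dose (log2 change 0.60 ± 0.057, adjusted p = 8e-10). GARS1, AARS1, WARS1, CARS1, IARS1, YARS1 and EPRS1 rose by 0.55, 0.53, 0.53, 0.43, 0.39, 0.37 and 0.30. VARS1, at 215 and 208 CPM, and SARS2, at 38.1 and 34.8 CPM, did not pass at this dose. At this depth and number of libraries, no lower mitochondrial gene was detected at medium dose. The 2 mitochondrial ribosomal RNAs made up 9.79% and 10.5% of counts at low dose, 6.27% and 6.45% at medium dose and 1.57% and 1.64% at high dose, and their part in these results was not tested. In vehicle cells, which belong to another library set, the shares were 1.07% to 1.15%, and WARS1 had 90.2, 92.7 and 92.2 CPM and VARS1 252, 261 and 257 CPM.

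**Figure D4:**
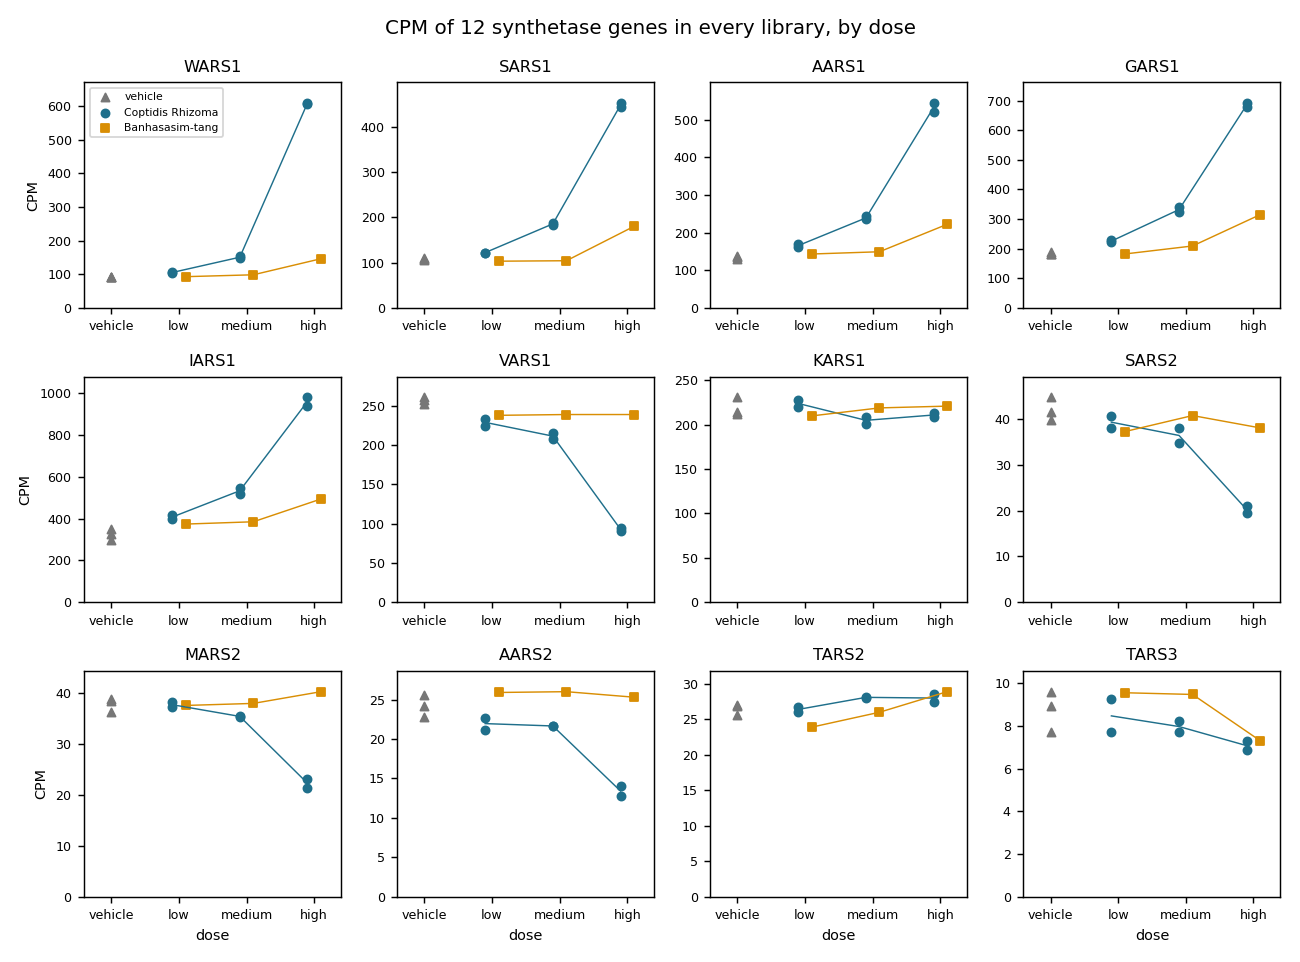
CPM of 12 members in every library of vehicle and of the low, medium and high doses of Coptidis Rhizoma (circles) and Banhasasim-tang (squares, 1 library a dose), with lines through the means and each axis from 0. With Coptidis Rhizoma WARS1 stands at 104 and 106 CPM at low dose and 610 and 608 CPM at high dose, while VARS1, SARS2, MARS2 and AARS2 are lowest at high dose.

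Promoter sequences were read for the members because so many rose together. RefSeq (GRCh38.p14) windows from 250 bases before to 50 bases after the gene start were at hand for 29 of the 35, and not for LARS1, VARS1, YARS1, TARS3, AARS2 and VARS2. The letters TGATGCAA, on either strand, are a form of the C/EBP-ATF response element that ATF4 binds with a C/EBP partner. They were found in 6 members, against 295 of all 27305 genes with a window (1.08%). The 6 were AARS1, CARS1, IARS1, MARS1, NARS1 and TARS1, all among the 11 members with a window that rose with Coptidis Rhizoma, and 0 of the other 18 held the motif. The wider form TGATGNAA, which contains it, was found in 8 members and 4.46% of genes, adding GARS1, which rose, and YARS2, which did not pass. Of 18 ATF4-linked genes with a window, from the list followed below, 2 held TGATGCAA and 5 held TGATGNAA. Most of that list also rose with Coptidis Rhizoma, so too few genes that did not rise were left there to compare rise and motif. The 30-base runs around the match are shown for the 8, with the motif in capitals as it reads on the gene's strand, since they place it at or near the start in most (first base of the motif from the start, +1, in brackets).
TARS1 (chr5:33440956-33440985, 3): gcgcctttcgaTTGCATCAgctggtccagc
IARS1 (chr9:92293692-92293721, -13): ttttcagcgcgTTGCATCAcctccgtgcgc
CARS1 (chr11:3057407-3057436, -2): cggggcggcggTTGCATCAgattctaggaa
MARS1 (chr12:57488053-57488082, -4): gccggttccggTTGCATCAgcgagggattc
NARS1 (chr18:57621804-57621833, 15): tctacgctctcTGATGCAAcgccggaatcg
AARS1 (chr16:70289675-70289704, -187): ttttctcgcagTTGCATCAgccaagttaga
GARS1 (chr7:30594834-30594863, -33): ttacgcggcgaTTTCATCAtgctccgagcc
YARS2 (chr12:32756076-32756105, -197): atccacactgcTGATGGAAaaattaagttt
WARS1 and SARS1, the members with the largest rises, had no match in their windows, which says only that these letters are not there. A motif of interferon-responsive genes, GAAA followed after any 2 bases by GAAA, was found in 2 members, WARS1 and EARS2, and in 4.38% of genes, and the WARS1 run is shown because that gene changed most.
WARS1 (chr14:100375383-100375412, -55): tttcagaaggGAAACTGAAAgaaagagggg
A match is a description of the letters and no evidence of binding.

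ATF4-linked genes were followed beside the synthetases. Of 20 ATF4-linked genes tested, 19 rose at high dose of Coptidis Rhizoma, with a median log2 change of 2.15 against -0.022 over all genes, and ATF5 did not pass. ASNS, the asparagine synthetase, had 755 ± 2.99 CPM at high dose and 105 ± 3.83 CPM at low dose (SD, n = 2 each), a log2 change of 2.85 ± 0.067 SE. DDIT3, the stress factor CHOP, changed by 3.87 ± 0.13, CHAC1, which degrades glutathione, by 3.73 ± 0.17, and ATF4 itself by 0.54 ± 0.064. Of 7 genes of eIF2 phosphorylation 5 rose, led by PPP1R15A (3.12 ± 0.11), a subunit of the eIF2 phosphatase. XPOT, which exports tRNA from the nucleus, rose by 1.06 ± 0.089 among 9 genes of tRNA handling, of which 4 rose and 3 fell, DTD2, PTRH2 and TRNT1.

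Banhasasim-tang gave rises in many cytosolic synthetase genes as well. At its high dose 9 cytosolic genes and GARS1 were higher than at low dose and 0 members were lower, where 1.04% of all genes were called higher and 0.693% lower. With 1 library a dose, the test assumes that each library varies like those of the other groups. SARS1 had 180 CPM at high dose and 103 CPM at low dose (log2 change 0.81 ± 0.081, adjusted p = 3.3e-09). GARS1 had 315 CPM at high dose and 182 CPM at low dose (0.79 ± 0.17), WARS1 146 and 92.6 CPM (0.66 ± 0.11), and CARS1 111 and 70.1 CPM (0.66 ± 0.082). AARS1, MARS1, YARS1, TARS1, IARS1 and EPRS1 rose by 0.63, 0.59, 0.55, 0.42, 0.40 and 0.35. The highest adjusted p among the 10 was that of TARS1, at 377 CPM at high dose and 282 CPM at low dose (adjusted p = 0.043), and with the size factors of DESeq2 its adjusted p was 0.062.

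The mitochondrial genes and VARS1 did not move with Banhasasim-tang as they did with Coptidis Rhizoma. The median log2 change was 0.40 over the cytosolic and 0.03 over the mitochondrial genes, 0 of which passed. VARS1 had 239 CPM at high dose and 238 CPM at low dose, TARS2 28.9 and 23.9 CPM (adjusted p = 0.21), TARS3 7.31 and 9.56 CPM (adjusted p = 0.31) and KARS1 221 and 210 CPM. All 10 members that rose were also among the 13 that rose with Coptidis Rhizoma, which is 100% of the first list and 76.9% of the second. The libraries are different, but the herbs in the formula are not listed here, so the extracts are not taken as unrelated. With Coptidis Rhizoma 27.8% of all genes were called higher, and the overlap of the 2 extracts over all genes was not counted. At the medium dose, where 0.025% of all genes were called against low dose, 0 members passed by edgeR, and 0 had an unadjusted p under 0.05. Of the 20 ATF4-linked genes 17 rose, led by CHAC1 (2.82 ± 0.25), but 0 of 7 genes of eIF2 phosphorylation. Mitochondrial ribosomal RNA made up 10.2% of counts at high dose, 2.07% at medium dose and 1.11% at low dose, the reverse order to that with Coptidis Rhizoma, and its part in the result was not tested.

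Bupleuri Radix gave smaller rises. At its high dose 6 members were higher than at low dose and 0 lower, where 6.34% of all genes were called higher and 6.59% lower. WARS1 had 118, 112 and 113 CPM at high dose, against 94.2, 96.1 and 95.3 CPM at low dose (log2 change 0.27 ± 0.066, adjusted p = 0.0037). FARSA, which fell with Coptidis Rhizoma, had 68.9, 70.6 and 68.9 CPM at high dose and 60.7, 57.1 and 59.3 CPM at low dose (0.23 ± 0.065, adjusted p = 0.01). NARS1 had 195, 194 and 192 CPM at high dose and 163, 165 and 167 CPM at low dose, and CARS1 77.1, 75.1 and 75.2 CPM at high dose and 68.9, 65.0 and 66.6 CPM at low dose. High and low dose were separate in all 4, though with so few libraries unchanged genes can also separate. SARS1 and AARS1 rose by 0.17 and 0.14. NARS1 did not pass without any 1 of its 6 libraries (adjusted p 0.064 to 0.094), nor FARSA without low replicate 2 (adjusted p = 0.059). Without Zizyphi Fructus medium replicate 3 in the model the count was 16 higher and 1 lower, of which 11 and 1 were cytosolic and 3 higher were mitochondrial. The share of all genes called in that fit is not given here, so these counts cannot be read against it.

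The genes kept apart did not pass with Bupleuri Radix in the model of all libraries. GARS1 had 236, 217 and 228 CPM at high dose and 189, 184 and 194 CPM at low dose (0.26 ± 0.096, adjusted p = 0.063), and without that library its adjusted p was 1e-06. TARS1 had 320, 318 and 319 CPM at high dose and 292, 279 and 282 CPM at low dose (adjusted p = 0.093, and 0.00029 without that library). KARS1 had 237, 235 and 238 CPM at high dose and 216, 217 and 218 CPM at low dose (0.13 ± 0.05, adjusted p = 0.091, and 0.0046 without that library), while TARS2 had 23.0, 22.6 and 24.9 CPM against 23.8, 24.2 and 25.7 CPM and TARS3 8.54, 7.75 and 8.05 CPM against 8.63, 9.44 and 9.66 CPM. Of the 20 ATF4-linked genes 13 rose, by up to 1.39 for ATF3, a stress-induced transcription factor, and so did PPP1R15A (0.80 ± 0.087) and XPOT (0.26 ± 0.072). The 6 members shared 5 with the 13 of Coptidis Rhizoma, 83.3% and 38.5% of the lists, and AARS1, CARS1, SARS1 and WARS1 rose with all 3 extracts. Here too the overlap over all genes was not counted, and 27.8% of all genes were called higher with Coptidis Rhizoma.

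**Figure D5:**
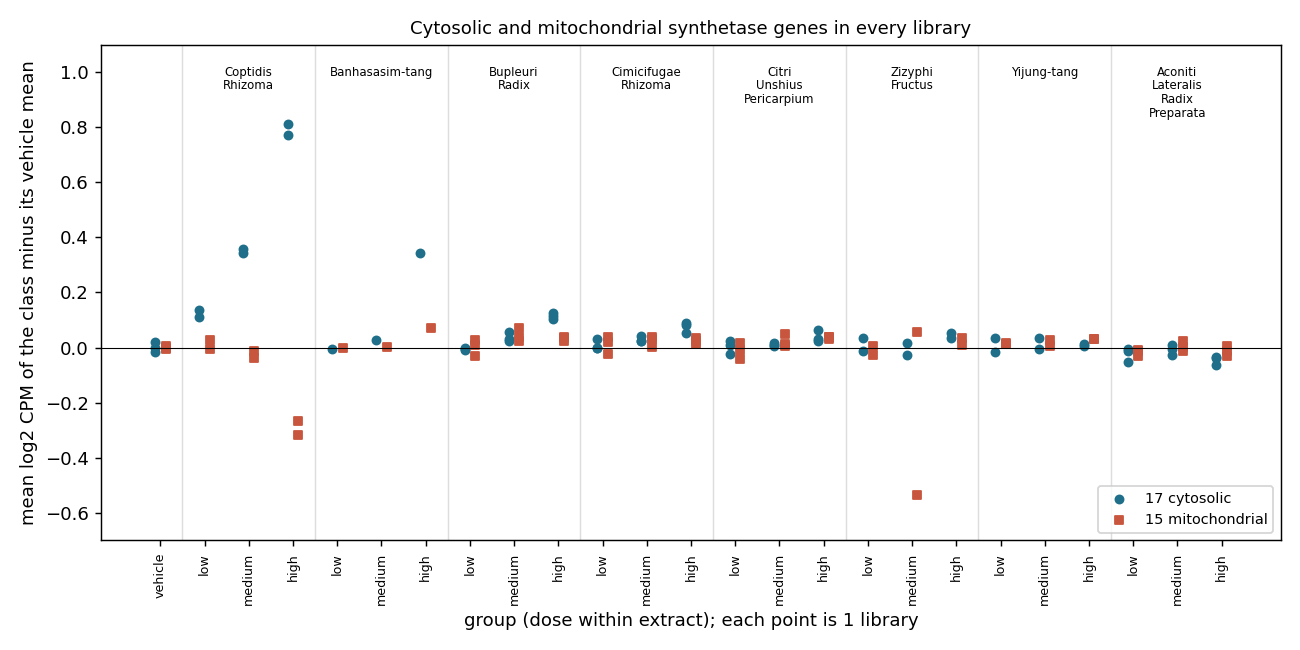
Mean log2 CPM of the 17 cytosolic (circles) and the 15 mitochondrial genes (squares) in each of 60 libraries, as a difference from the vehicle mean, by extract and dose. The cytosolic mean reaches 0.772 and 0.812 at the high dose of Coptidis Rhizoma, where the mitochondrial mean is -0.316 and -0.266, and 0.344 in the high-dose library of Banhasasim-tang; the lone low square is Zizyphi Fructus medium replicate 3, at -0.537.

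With Aconiti Lateralis Radix Preparata only LARS2 and WARS2 passed, both mitochondrial and lower at high dose. The classes as a whole did not move, with a median log2 change of -0.02 over the cytosolic and 0.02 over the mitochondrial genes. LARS2, for leucine, had 23.4, 23.4 and 23.3 CPM at high dose, against 28.0, 30.4 and 29.2 CPM at low dose (log2 change -0.32 ± 0.082, adjusted p = 0.017). WARS2, for tryptophan, had 19.9, 20.5 and 20.1 CPM at high dose and 24.2, 25.9 and 22.0 CPM at low dose (-0.25 ± 0.057, adjusted p = 0.0047). High and low dose did not overlap in either gene. The other 33 members did not pass, in a comparison with 0.474% of all genes called higher and 2.23% lower. Among them TARS1 had 271, 265 and 275 CPM at high dose and 268, 289 and 286 CPM at low dose, and GARS1 172, 177 and 180 CPM at high dose and 186, 188 and 189 CPM at low dose (-0.09 ± 0.096). KARS1 had 217, 215 and 217 CPM at high dose and 207, 216 and 212 CPM at low dose. TARS2 had 24.3, 25.4 and 25.3 CPM at high dose and 23.5, 23.1 and 23.2 CPM at low dose, and TARS3 11.9, 10.4 and 10.1 CPM at high dose and 9.10, 9.33 and 8.65 CPM at low dose (0.26 ± 0.084, adjusted p = 0.097). In GARS1, TARS2 and TARS3 the libraries of the doses did not overlap, although no change passed. Without low replicate 2 neither gene passed, LARS2 at -0.29 (adjusted p = 0.11) and WARS2 at -0.20 (adjusted p = 0.10). Against vehicle, WARS2 (21.9, 20.3 and 21.0 CPM) was called higher at the low dose of this extract and not lower at the high dose.

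In the other 4 extracts 0 members passed by edgeR's quasi-likelihood test from low to high dose. With Zizyphi Fructus, where 0% of all genes were called higher and 0% lower, 1 member had an unadjusted p under 0.05, DESeq2 called 0, and the members' log2 changes ran from -0.12 to 0.17. With Citri Unshius Pericarpium (0.0187% higher, 0.125% lower) 3 members did so and DESeq2 called 1, with a range of -0.22 to 0.13. With Cimicifugae Rhizoma (0.437% higher, 0.437% lower) 6 did so, all cytosolic, DESeq2 called 1, and 15 of the 17 cytosolic genes had a positive change, with a range over all members of -0.14 to 0.16. Of the ATF4-linked genes 5 of 20 rose there, among them ASNS (0.46 ± 0.054) and SLC7A11 (0.80 ± 0.07), a cystine transporter. With Yijung-tang (0.0874% higher, 0.119% lower) 1 member did so, DESeq2 called 0, and the range was -0.20 to 0.13. Without Zizyphi Fructus medium replicate 3 the counts of these 4 extracts were 0, 1, 4 and 0, with the shares of all genes not given here.

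That library itself held unlike values. With Zizyphi Fructus medium dose against low dose 31.4% of all genes and 18 members were called, and without it 0 members. GARS1 had 365 CPM there and 190 CPM in medium replicate 2, against 189 and 198 CPM at low dose, VARS1 133 and 234 CPM against 238 and 233 CPM, and KARS1 168 and 217 CPM against 219 and 226 CPM. Its 15 mitochondrial genes summed to 400 CPM, against 565 to 614 CPM in every other library but the high dose of Coptidis Rhizoma, and CD68, a macrophage marker also found in other cells, stood at 38.3 CPM there.

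Against vehicle the high dose of Coptidis Rhizoma had 13 members higher (30.9% of all genes) and 13 lower (32% of all genes). The cytosolic median was 1.11 and the mitochondrial one -0.31, and PARS2 (0.63 ± 0.096) was again the mitochondrial gene that rose. With Banhasasim-tang 13 members were higher than vehicle and 0 lower, where 4.94% of all genes were called higher and 2.67% lower, among them LARS1 (0.50), NARS1 (0.51) and PARS2 (0.38), which had not passed against low dose. Against the same 3 vehicle libraries 10 members passed with Bupleuri Radix (27% of all genes), 8 with Cimicifugae Rhizoma (18%), 3 with Aconiti Lateralis Radix Preparata (17.3%), 2 with Citri Unshius Pericarpium (13.2%), 1 with Yijung-tang (7.65%) and 1 with Zizyphi Fructus (6.9%). IARS1 was higher than vehicle at the high dose of 7 extracts and also at the low dose of 7, by 0.13 to 0.33 at low dose, from vehicle values of 300, 326 and 349 CPM. FARSA was lower than vehicle at the low dose of 5 extracts, with 76.4, 65.0 and 62.9 CPM in vehicle. At low dose against vehicle 8 members passed with Coptidis Rhizoma (6.12% of all genes), 5 with Citri Unshius Pericarpium (14.1%), 4 with Aconiti Lateralis Radix Preparata (14.5%), 3 with Cimicifugae Rhizoma (13.6%), 3 with Yijung-tang (7.61%), 2 with Bupleuri Radix (14.5%), 1 with Zizyphi Fructus (6.04%) and 1 with Banhasasim-tang (3.22%). Without Zizyphi Fructus medium replicate 3 the counts at low dose were 15 with Coptidis Rhizoma and 4 to 11 with the others. The shares of all genes in that fit are not given here. These comparisons share the vehicle libraries and are no separate evidence.

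The extracts of a library set were also set against each other, each pair at high dose and by the difference of their changes from low to high dose. Coptidis Rhizoma and Zizyphi Fructus differed in 26 members at high dose (56.8% of all genes) and in the change of 24 (42.9%), 12 in each direction, with WARS1 at 2.51 ± 0.12 and VARS1 at -1.33 ± 0.14. Banhasasim-tang had 10 members higher than Yijung-tang at high dose (1.57% of all genes). The change of 6 was larger with Banhasasim-tang (0.462% of all genes differed): SARS1 by 0.83 ± 0.10, AARS1 by 0.76 ± 0.084, WARS1 by 0.64 ± 0.14, CARS1 by 0.62 ± 0.10, YARS1 by 0.58 ± 0.13 and EPRS1 by 0.35 ± 0.081. Bupleuri Radix differed from Aconiti Lateralis Radix Preparata in 12 members at high dose (21.1% of all genes), 10 of them higher, among them WARS1 at 115 ± 3.27 CPM against 90.0 ± 2.78 CPM (SD, n = 3 each). Between these 2 extracts the change of 3 members differed (8.52% of all genes): WARS1 by 0.32 ± 0.094, CARS1 by 0.30 ± 0.067 and TARS3 by -0.45 ± 0.12. Without Zizyphi Fructus medium replicate 3 the changes of 16 members differed between them, and those of 12 between Banhasasim-tang and Yijung-tang. For that fit the shares of all genes are not given here. Citri Unshius Pericarpium and Cimicifugae Rhizoma differed in 0 members at high dose (0.905% of all genes) and in the change of 0 (0.2%), with 4 and 1 members at an unadjusted p under 0.05 in edgeR's test, and DESeq2 was not run on these pairs.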

How the data were processed

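RNA from HT29 cells was sequenced as strand-marked libraries with 100 bp paired ends, per the labels' protocols. Per the submitters' processing notes, RSEM 1.3.3 and STAR 2.7.3a were used with the build GRCh38, as were Trim Galore 0.6.5 and FastQC 0.11.9. No annotation is named there. The deposited values are expected counts per gene, which the authors estimated with RSEM. Of 270 columns in the table, 60 belong to the samples described here and 210 were not analysed. Expected counts were rounded to whole numbers. Genes with at least 0.5 CPM in 3 libraries (16022) were fitted over 25 groups with TMM scaling and edgeR 4.0.16's quasi-likelihood F test (R 4.3.3), with p-values adjusted by Benjamini-Hochberg over all genes tested in each comparison and a threshold of 0.05. The SE of a log2 change is its size divided by the square root of F. CPM used TMM-scaled library sizes. The fit was tested on simulated counts. The alternatives were DESeq2 1.42.0, other scalings and filters, the compared groups alone, a replicate block and leaving out libraries. Same-numbered libraries of high and low dose had correlated deviations of -0.0338 to 0.133, so the numbers were not taken as pairs. Gene coordinates and overlaps came from GENCODE 29 and promoters from RefSeq. The members and gene lists were chosen with earlier results of these data known. Values per library are given for the 4 largest changes past the threshold in each direction of each extract, for GARS1, KARS1, TARS1, TARS2 and TARS3, and for cytosolic and mitochondrial counterparts whose changes with Coptidis Rhizoma differ in sign; other genes with values were named after these were seen.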

Additional observations from a re-analysis of the deposited data

Results flagged for a closer look

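The change from low to high dose differed between the extracts of a library set in 3 of 4 pairs, by a test of the difference itself. Coptidis Rhizoma and Zizyphi Fructus differed in 24 members, 12 larger and 12 smaller with Coptidis Rhizoma, where 42.9% of all genes differed. Banhasasim-tang and Yijung-tang differed in 6 members (0.462% of all genes differed), all cytosolic and all larger with Banhasasim-tang, where each dose had 1 library. Bupleuri Radix and Aconiti Lateralis Radix Preparata differed in 3 members, CARS1, WARS1 and TARS3. TARS3 was the one with the smaller change with Bupleuri Radix. Of all genes 8.52% differed between these extracts, and the count of members is near that share.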

How the results depend on the processing

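Signs were checked in high against low dose, for the members whose values per library were set by rule, and not in the other comparisons. No log2 change of these members that passed the threshold changed sign under the alternatives run. Values near 0 did: without low replicate 2 the excess of the cytosolic median was 0.01 with Citri Unshius Pericarpium and 0.03 with Yijung-tang, and NARS2 with Coptidis Rhizoma changed by 0.02 without high replicate 2 or low replicate 3. For high against low dose the replicate block within library set left the counts of members called at 27, 0, 0, 0, 6, 2, 10 and 0 in the order Coptidis Rhizoma, Zizyphi Fructus, Citri Unshius Pericarpium, Cimicifugae Rhizoma, Bupleuri Radix, Aconiti Lateralis Radix Preparata, Banhasasim-tang and Yijung-tang. Fitted with the compared groups alone, high against low dose gave 16 members with Bupleuri Radix and 4 with Aconiti Lateralis Radix Preparata, and high dose against vehicle gave 0 with Zizyphi Fructus, 0 with Citri Unshius Pericarpium, 5 with Cimicifugae Rhizoma, 5 with Banhasasim-tang and 0 with Yijung-tang. With no filter on low counts, high against low dose gave 1 with Aconiti Lateralis Radix Preparata, and high dose against vehicle gave 0 with Zizyphi Fructus, 4 with Cimicifugae Rhizoma and 0 with Yijung-tang. DESeq2's Wald test gave 1 with Citri Unshius Pericarpium and 1 with Cimicifugae Rhizoma for high against low dose, and 5 with Aconiti Lateralis Radix Preparata for high dose against vehicle. With GARS1, KARS1 and TARS3 counted as cytosolic, the cytosolic median exceeded the mitochondrial one by 1.27 with Coptidis Rhizoma and by -0.03 with Aconiti Lateralis Radix Preparata. The causes of these shifts were not tested.

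Leaving out single libraries, Zizyphi Fructus medium replicate 3 among them, gave for high against low dose 24 to 28 members with Coptidis Rhizoma, 0 to 1 with Citri Unshius Pericarpium, 0 to 4 with Cimicifugae Rhizoma, 4 to 17 with Bupleuri Radix, 0 to 4 with Aconiti Lateralis Radix Preparata, 12 with Banhasasim-tang and 0 with Zizyphi Fructus and Yijung-tang. For high dose against vehicle it gave 25 to 28, 0 to 10 with Zizyphi Fructus, 1 to 10 with Citri Unshius Pericarpium, 3 to 11 with Cimicifugae Rhizoma, 7 to 16 with Bupleuri Radix, 2 to 13 with Aconiti Lateralis Radix Preparata, 12 to 13 with Banhasasim-tang and 0 to 6 with Yijung-tang. The excess of the cytosolic median ran from 1.20 to 1.34 with Coptidis Rhizoma, -0.03 to 0.00 with Zizyphi Fructus, -0.05 to 0.01 with Citri Unshius Pericarpium, 0.05 to 0.10 with Cimicifugae Rhizoma, 0.08 to 0.13 with Bupleuri Radix, -0.06 to -0.02 with Aconiti Lateralis Radix Preparata and -0.07 to 0.03 with Yijung-tang. NARS1 with Bupleuri Radix did not pass in any of the 6 fits without a library of its own groups (adjusted p 0.064 to 0.094). Leaving out Zizyphi Fructus medium replicate 3 in the other comparisons was an alternative chosen after seeing the data. It gave 12 members for medium against low dose with Coptidis Rhizoma and 0 with Zizyphi Fructus. Low dose against vehicle gave 15, 7, 11, 10, 8, 11, 4 and 7, in the order of extracts above. The pairs at high dose gave 31, 1, 20 and 12 in the order of Coptidis Rhizoma, Citri Unshius Pericarpium, Bupleuri Radix and Banhasasim-tang, and the differences of change gave 27 for the first, 16 for the third and 12 for the last. Groups of 1 to 3 libraries limit what can be detected, and the share called in all genes moves with that 1 library. That share is not given for the alternative fits, so their counts of members cannot be read against it.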
